A study of Mus musculus with 6 samples.

Results

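The messenger RNAs of 10 transcription factors of the pluripotency network, Pou5f1, Sox2, Nanog, Sall4, Klf2, Klf4, Klf5, Esrrb, Tfcp2l1 and Zfp42, were followed across 6 single mouse blastocysts. They were taken by name from a table of 12149 genes, and all 10 were listed in it. Zygotes on a C57BL/6 background were injected with small RNAs isolated from sperm, at 2 ng/µl, and grown to blastocysts of embryonic day 3.5, about 96 h later. The sperm came from normal males for the control embryos (Ctl, n = 3) and from males that stress had made depressive for the others (Dep, n = 3). Injection with sperm small RNA is thus common to both groups, and embryos left without an injection are not analysed here. Each library is 1 whole embryo, in which trophectoderm, epiblast and primitive endoderm are mixed. Nothing in the labels ties embryos to parents or to a day of injection, nor tells if sperm RNA was pooled over males, so the tests below measure the spread between these embryos.

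Pluripotency is the capacity of the epiblast, the part of the inner cell mass that founds the fetus, to form all tissues of the body. OCT4 (from Pou5f1), SOX2 and NANOG bind many of the same enhancers and sustain each other's transcription, and OCT4 and SOX2 often bind side by side on a composite DNA element. The naive state of the preimplantation epiblast adds a layer of factors, among them ESRRB, TFCP2L1 and the Krüppel-like factors KLF2, KLF4 and KLF5, which overlap in function. SALL4 is a zinc finger protein that supports Pou5f1, and REX1 (from Zfp42) is a zinc finger protein long used as a marker of the naive state. Several of these genes are not confined to the epiblast in the blastocyst: Klf5, for one, is also needed in the trophectoderm.

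Promoter sequences are shown first, for the 3 genes whose window holds the letters that OCT4 recognises, because members of this network are known to bind one another's genes. RefSeq promoters (GRCm38.p6, 250 bases before to 50 after a start site) were matched by symbol for 8 of the 10 genes, in 11 entries, with none printed for Klf5 and Sall4. The octamer core ATGCAAA, the part of the POU octamer that OCT4 recognises, was found on either strand in 4 of these 11 promoters, those of Nanog (both entries), Sox2 and Zfp42, and in 4.63% of all 32851 promoters of the same length. The full octamer ATGCAAAT, which contains that core, was found in Zfp42 and in 1.74% of all promoters. In the 3 sequences below the capitals mark every motif found.

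Nanog: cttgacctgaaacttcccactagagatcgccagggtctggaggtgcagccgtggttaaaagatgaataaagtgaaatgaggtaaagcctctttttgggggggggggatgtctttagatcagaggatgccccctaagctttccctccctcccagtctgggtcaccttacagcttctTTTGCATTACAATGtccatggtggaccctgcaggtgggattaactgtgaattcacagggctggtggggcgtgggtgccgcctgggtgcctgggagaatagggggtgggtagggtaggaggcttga

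Zfp42: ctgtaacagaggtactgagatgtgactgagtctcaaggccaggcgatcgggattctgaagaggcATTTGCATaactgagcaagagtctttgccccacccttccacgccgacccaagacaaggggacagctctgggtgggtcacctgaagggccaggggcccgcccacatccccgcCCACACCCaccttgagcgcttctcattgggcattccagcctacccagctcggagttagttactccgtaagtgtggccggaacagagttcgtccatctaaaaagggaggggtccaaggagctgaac

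Sox2: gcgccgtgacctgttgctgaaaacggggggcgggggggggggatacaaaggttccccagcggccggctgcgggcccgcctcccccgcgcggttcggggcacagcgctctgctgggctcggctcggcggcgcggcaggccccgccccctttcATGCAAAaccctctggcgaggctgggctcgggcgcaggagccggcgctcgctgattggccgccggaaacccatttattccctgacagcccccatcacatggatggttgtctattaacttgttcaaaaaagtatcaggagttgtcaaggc

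The Nanog promoter lies at chr6:122707239-122707538 (plus strand), that of Zfp42 at chr8:43306960-43307259 (minus strand) and that of Sox2 at chr3:34649745-34650044 (plus strand). The capitals in Nanog span a SOX site, CATTGT, then any base, then the octamer core, read on the strand opposite to the gene and lying at -75 to -62 from the start site. Only 2 of the 32851 promoters held this composite, and both are entries of Nanog with overlapping windows. It was searched for after the sequences had been seen and is a textbook element of Nanog, so the count is a description. The capitals in Zfp42 mark the octamer, at -186 to -179 from the start, and a CACCC element, CCACACCC, of the kind bound by Krüppel-like factors, at -75 to -68 (found in 3.56% of all promoters). In Sox2 the octamer core lies at -99 to -93. The SOX element CATTGTT was found in 1 of 11 promoters, a second start site of Pou5f1, and in 3.78% of all promoters. The ESRRB element TCAAGGTCA (0.423% of all promoters) and a TFCP2L1 pair of CCAG sites 6 bases apart (3.44%) were found in 0 of the 11. A match or its absence in these windows says nothing about binding.

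The table gives normalized counts, reads per gene divided by a size factor for each library, and the whole reads behind them summed to between 16543356 and 21548220 per embryo. In Dep 1 no read was counted for 691 of the genes, while the other embryos lacked reads for only 5 to 106. Markers of a blastocyst were listed, 12 of 12 for trophectoderm and 11 of 12 for primitive endoderm, but not each was found in each embryo. Hand1 had 0 reads in Ctl 1 and Dep 1, Gata4 in Ctl 3 and Dep 1, and Sox17 and Sox7 in Dep 1. Of 10 markers of cumulus and granulosa cells 1 was listed (Amhr2, at 34.0 to 199.6 normalized counts), and of 10 oocyte markers 3 were (Padi6, Zp3 and Tcl1, the last also among the pluripotency regulators below).

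None of the 10 factors differed between Dep and Ctl beyond the spread of the embryos. The groups overlapped for all 10, where 6.90% of all genes had groups that did not overlap. The mean log2 level was higher in Dep for 6 factors and lower for 4, with a median log2 fold of 0.02, beside 48.2% of all genes higher in Dep and a median of -0.02 over all genes. Differences were tested with limma on log2(normalized count + 1) across all 12149 genes with Benjamini-Hochberg adjustment, and 0 genes (0%) passed an adjusted p of 0.05. At an unadjusted p under 0.05 there were 225 genes (1.85%), none of them a factor, with a smallest unadjusted p of 0.190 among the 10, for Klf5. That number was 211 with edgeR and 279 with DESeq2, which called 1 gene after adjustment that is not among the factors. With replicate numbers blocked it was 420, and with library weights 399. It was 122 and 137 without Ctl 1 and Ctl 3, and 474, 349 and 576 without Dep 1, Dep 2 and Dep 3. The adjusted p was 0.9997 for each factor (limma), and the authors' deposited table gives 0.9999 for each.

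**Figure D1:**
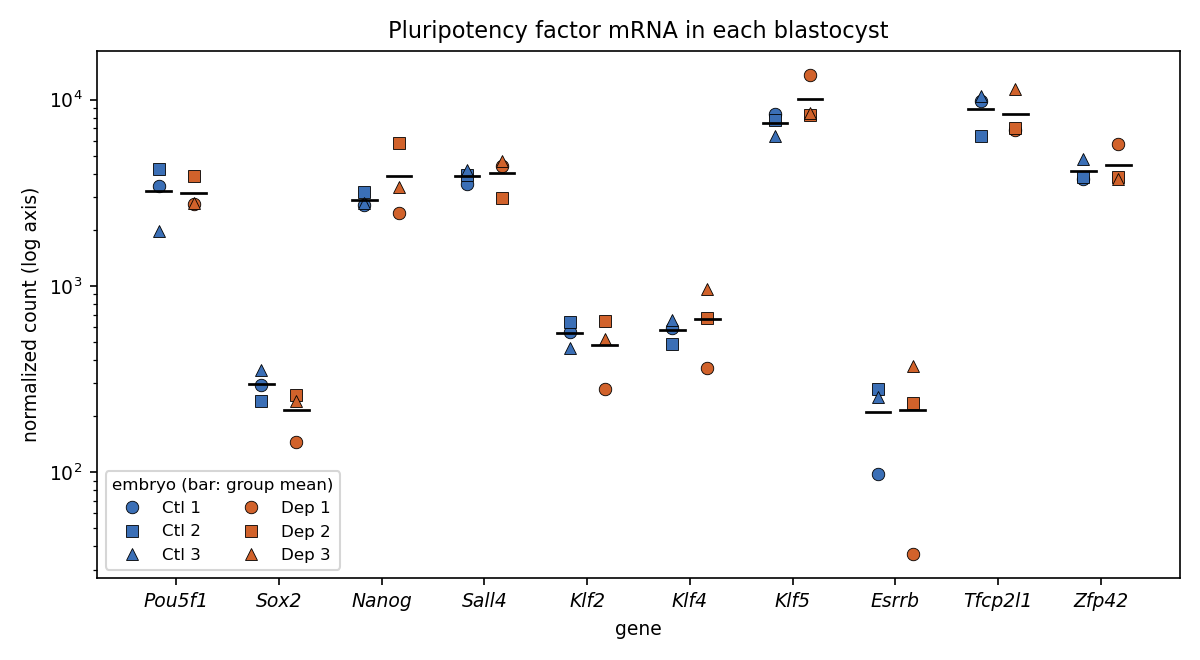
Normalized counts (log axis) of the 10 factors in each embryo, Ctl in blue and Dep in orange, with bars at the group means (n = 3 each). Ctl and Dep overlap for every gene, and Dep 1 is the lowest embryo for Sox2, Nanog, Klf2, Klf4 and Esrrb.

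Among the core factors, Pou5f1 (ENSMUSG00000024406, protein-coding, chromosome 17, 35506018 to 35510772) encodes the POU homeodomain protein without which no inner cell mass is maintained. It had 3426, 4256 and 1977 normalized counts across Ctl 1 to 3, against 2767, 3888 and 2769.8 across Dep 1 to 3. All 3 Dep embryos lay inside the range of the Ctl embryos, whose lowest and highest values were those of the whole set. The log2 fold of Dep against Ctl was 0.02 ± 0.33 (SE, limma), with a 95% interval from -0.71 to 0.74. It was -0.30 without Ctl 3, the lowest embryo.

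Sox2 (ENSMUSG00000074637, chromosome 3, 34650405 to 34652461, a gene of 1 exon) encodes the HMG-box partner of OCT4. Its values were 294, 241 and 353 normalized counts across the Ctl embryos, against 146, 261 and 240.2 across the Dep embryos. Dep 1 was the lowest embryo and Ctl 3 the highest, and Dep 2 and Dep 3 lay at or near the low end of Ctl. The log2 fold of -0.48 ± 0.44 was the largest in size of the 10, with an interval from -1.46 to 0.49. It was -0.22 without Dep 1, which alone had 120 reads of Sox2 where the other embryos had 248 to 400.

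Nanog (ENSMUSG00000012396, chromosome 6, 122707489 to 122714633) encodes the homeodomain protein that marks the epiblast as it parts from primitive endoderm. It had 2711, 3197 and 2789 normalized counts across the Ctl embryos, against 2463, 5815 and 3378 across the Dep embryos. The Ctl embryos were close together, while Dep held both the lowest and the highest embryo, with Dep 2 alone far above the rest. The log2 fold was 0.33 ± 0.33, with an interval from -0.39 to 1.06, and -0.0034 without Dep 2. Sall4 (ENSMUSG00000027547, chromosome 2, 168748332 to 168767943) had 3517, 3937 and 4174 across the Ctl embryos, against 4417, 2950.3 and 4709.6 across the Dep embryos. Dep again held both ends of the range, Dep 2 the low one and Dep 3 the high one, around nearly equal means (3876 ± 332 and 4026 ± 943, SD, n = 3 each).

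The 3 Krüppel-like factors, zinc finger proteins that bind CACCC-like elements, did not share one pattern over the embryos. Klf2 (ENSMUSG00000055148, chromosome 8, 72319033 to 72321656) had 565, 641 and 462 normalized counts across the Ctl embryos, against 280.4, 647 and 519 across the Dep embryos. Klf4 (ENSMUSG00000003032, chromosome 4, 55527143 to 55532466) had 598, 486 and 658 across the Ctl embryos, against 363, 674 and 966 across the Dep embryos. Klf5 (ENSMUSG00000005148, chromosome 14, 99298691 to 99315036) had 8360.4, 7761 and 6407 across the Ctl embryos, against 13604, 8309 and 8455 across the Dep embryos. Dep 1 was thus the lowest embryo for Klf2 and Klf4 and the highest for Klf5. The log2 folds were -0.27 ± 0.40 for Klf2, 0.10 ± 0.40 for Klf4 and 0.40 ± 0.29 for Klf5 (SE, limma). Leaving out Dep 1 gave 0.074 for Klf2, 0.49 for Klf4 and 0.17 for Klf5.

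Esrrb (ENSMUSG00000021255, chromosome 12, 86361117 to 86521628), an orphan nuclear receptor of the naive state, varied most among the 10. It had 98.2, 281 and 253 normalized counts across the Ctl embryos, against 36.4, 236 and 371 across the Dep embryos, a 10.2-fold range. The low end was Dep 1, where the value rests on 30 reads, followed by Ctl 1 with 83 reads, and the other 4 embryos had 238 to 440 reads. The log2 fold was -0.37 ± 0.83, with an interval from -2.21 to 1.48, and 0.63 without Dep 1. Tfcp2l1 (ENSMUSG00000026380, chromosome 1, 118627945 to 118685168), a factor downstream of LIF and STAT3 in embryonic stem cells, had 9799.6, 6404 and 10512 across the Ctl embryos, against 6833, 7018 and 11331 across the Dep embryos. Its embryos formed a higher set (Ctl 1, Ctl 3 and Dep 3) and a lower one (Ctl 2, Dep 1 and Dep 2) that cut across the groups. Zfp42 (ENSMUSG00000051176, chromosome 8, 43295063 to 43306980) had 3762, 3852 and 4822 across the Ctl embryos, against 5741, 3852 and 3756 across the Dep embryos. Dep 1 was the highest embryo, Ctl 3 the next, and the other 4 lay within a narrow band. The log2 folds were 0.03 ± 0.27 for Sall4, -0.09 ± 0.31 for Tfcp2l1 and 0.08 ± 0.27 for Zfp42 (SE, limma).

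**Figure D2:**
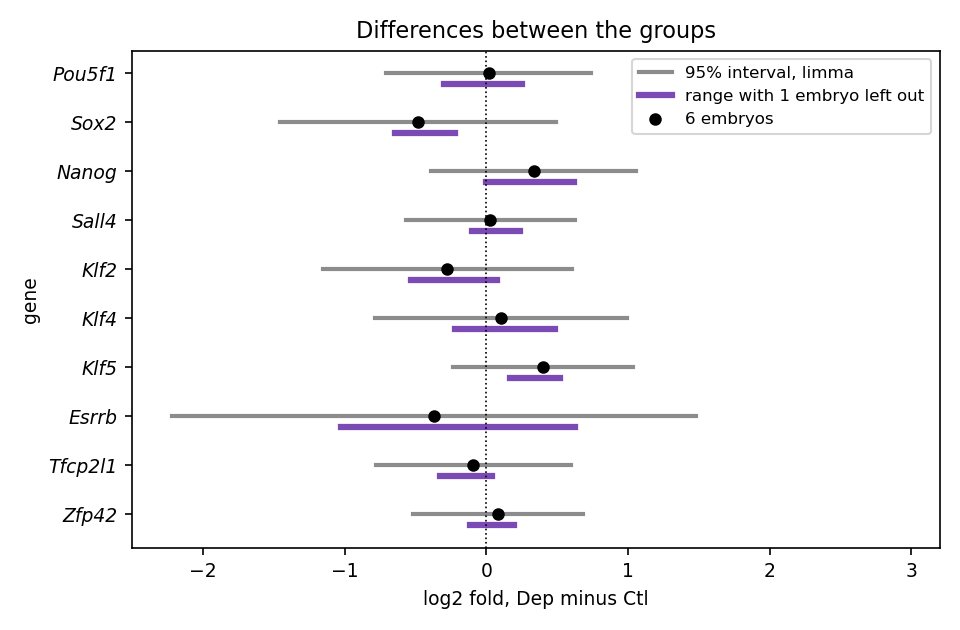
Log2 fold of Dep against Ctl for each factor (points), with the 95% interval from limma (grey) and the range of the fold when each embryo in turn is left out (purple). Every interval spans 0, and that of Esrrb, from -2.21 to 1.48, is the widest.

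How large a difference could have gone unseen depended on the gene. For 5 of the 10 factors, Pou5f1, Sall4, Klf4, Tfcp2l1 and Zfp42, the 95% interval lay within a 2-fold change in either direction. The intervals of Sox2, Nanog, Klf2, Klf5 and Esrrb reached past it on one side or both. Of 16 alternative settings, 3 leave the fold as it is by construction. The fold of Sox2 stayed under 0 and that of Klf5 over 0 in the other 13, none of which called either gene, and the other 8 factors had the opposite sign in 1 to 5 settings. Klf5 was higher in Dep in 3 of 3 same-numbered pairs, and each of the other factors in 1 or 2 of the 3. With the pairs as a block the smallest adjusted p of a factor was 0.941 (limma).

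The factors differed far more from each other than between the groups. Levels of different genes were compared as FPKM, reads scaled to exon length and to the total of listed reads. Exon length was that of all annotated exons of a gene joined together, whichever transcripts the embryos used. Zfp42 was highest, at 124 ± 18.4 FPKM over the 6 embryos (SD), followed by Klf5 at 91.3 ± 19.1, Nanog at 83.3 ± 32.3 and Pou5f1 at 77.1 ± 20.9. Next came Tfcp2l1 at 50.5 ± 15.5 and Sall4 at 39.1 ± 8.0. A gap separated these 6 from the other 4: the lowest embryo for Sall4 had 29.4 FPKM and the highest for Klf2 19.3. Below it lay Klf2 at 15.5 ± 4.50, Klf4 at 11.4 ± 4.59, Sox2 at 6.85 ± 2.05 and Esrrb at 2.00 ± 1.25. In 8 of the 9 neighbouring pairs of this order the ranges over the 6 embryos overlapped. Compared within each embryo, however, Zfp42 exceeded Klf5, Sall4 exceeded Klf2, Klf4 exceeded Sox2 and Sox2 exceeded Esrrb in 6 of 6 embryos. The first and last of these depend on the exon lengths used. Before that scaling Klf5 had 7064 to 11205 reads and Zfp42 3179 to 5463. Esrrb had more reads than Sox2 in Ctl 2 (336 against 289) and Dep 3 (440 against 285), and fewer in the other embryos. Sall4 and Klf4 also exceeded Klf2 and Sox2 in reads in each embryo. The other neighbours were in the order of their means in 3 to 5 of the 6 embryos, with Nanog above Pou5f1 in 3. Zfp42 lay above 95.7% of the genes with a known exon length, Pou5f1 above 92.8%, Sox2 above 53.0% and Esrrb above 24.7%. FPKM of a whole embryo averages over its cells, and a low value can mean few cells with the mRNA or little mRNA per cell, which cannot be told apart here.

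**Figure D3:**
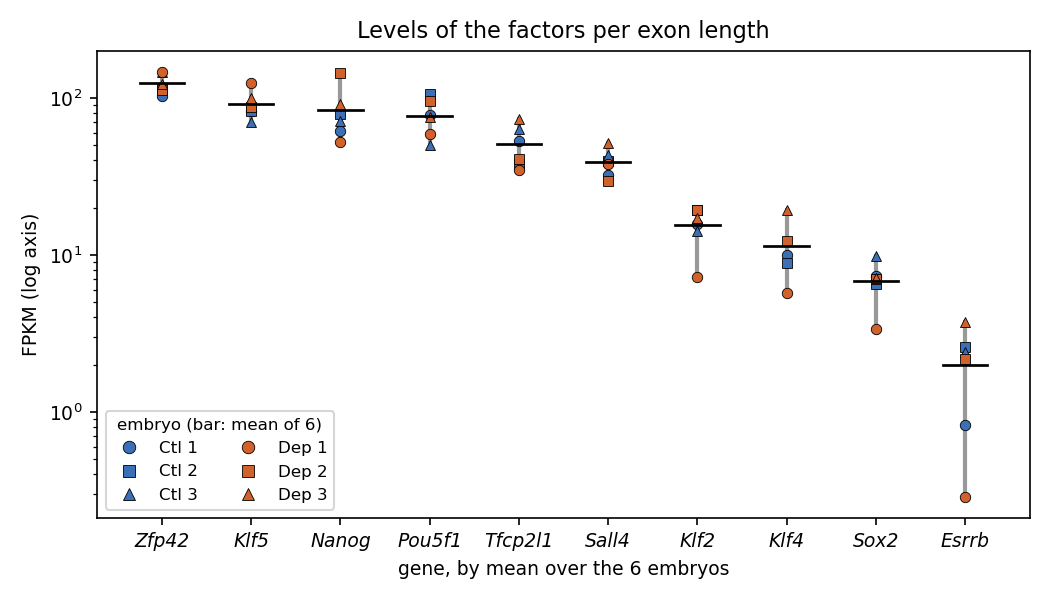
FPKM (log axis) of each factor in each embryo, ordered by the mean over the 6 embryos (black bars), with grey lines from the lowest to the highest embryo. Zfp42 to Sall4 lie between 29.4 and 146 FPKM and the 4 factors from Klf2 to Esrrb at or below 19.3.

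Part of the reads of some factors could be shared with other gene models. The libraries do not mark strand, and 317 exon bases of Pou5f1 (14.1%) overlap the antisense gene Gm19553, as 526 of Sall4 (9.5%) overlap Gm14261 on the opposite strand. Stretches of at least 100 bases at 95% identity or more matched the pseudogene Zfp42-ps1 over 26.9% of the Zfp42 transcript. For Nanog they covered 20.4% and belonged to 61 other genes, Nanog-ps1 among them, of which 33 are in the table. Sox2, Klf2, Klf4, Klf5 and Esrrb had 0 such matches. How reads with several matches were counted is not given in the sources used here, so the levels of Nanog and Zfp42 are uncertain by an unknown share.

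For most of the factors the spread between embryos of a group was near or below that of the median gene. The SD of the log2 level, pooled over both groups, ran from 0.27 for Sall4 and 0.28 for Zfp42 to 0.53 for Klf4 and 1.37 for Esrrb. It lay below 0.471, the median of the 9613 genes with a mean of 100 normalized counts or more, for 7 of the 10. Of these, Pou5f1 (0.450) and Nanog (0.452) were close to that median, and Klf2 (0.472) lay just above it. The 9613 genes were not matched to the factors in level. The SD was larger in Dep than in Ctl for 9 of the 10, all but Pou5f1, and for 67.5% of all genes. Between the lowest and the highest embryo the factors other than Esrrb spanned 1.53-fold (Zfp42) to 2.66-fold (Klf4).

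Dep 1 was often at one end of that range. It was the lowest embryo for 5 of the 10 factors, Sox2, Nanog, Klf2, Klf4 and Esrrb, and the highest for Klf5 and Zfp42. Of the 9613 genes with a mean of 100 or more, Dep 1 was the lowest embryo for 25.9% and the highest for 26.5%, more often than any other embryo at either end. Relative to the mean of the 6 embryos on the log2 scale, Dep 1 lay at -2.18 for Esrrb, -0.83 for Klf2, -0.76 for Sox2, -0.72 for Klf4 and -0.40 for Nanog. It lay at 0.67 for Klf5 and 0.44 for Zfp42. Dep 3 was the highest embryo for Sall4, Klf4, Esrrb and Tfcp2l1, and Dep 2 for Nanog and Klf2.

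**Figure D4:**
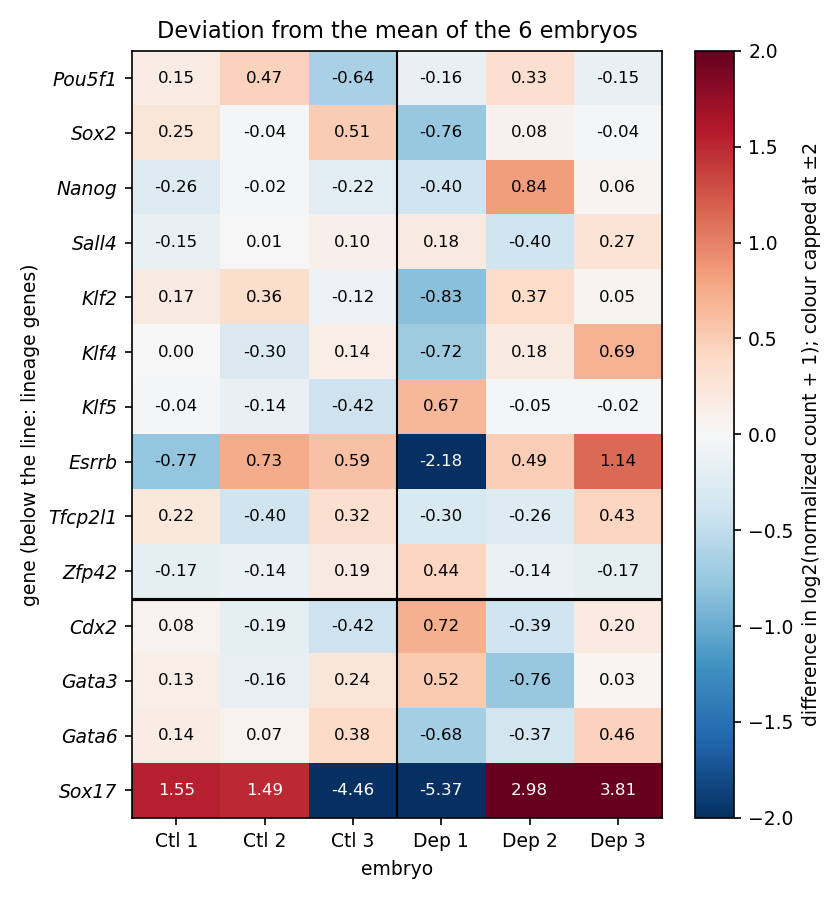
Difference of each embryo from the mean of the 6 embryos in log2(normalized count + 1), for the 10 factors and, below the line, 4 lineage genes. Dep 1 is low for Esrrb, Klf2, Sox2 and Klf4 (-2.18 to -0.72) and high for Klf5 (0.67), with Cdx2 at 0.72, and Sox17 is low in both Dep 1 (-5.37) and Ctl 3 (-4.46).

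Some lineage markers also stood apart in Dep 1. The 12 trophectoderm markers summed to 141130.1 normalized counts in Dep 1, against 57923 to 103051 in Ctl and 49569.8 and 56202 in Dep 2 and Dep 3. Cdx2, the trophectoderm determinant that opposes Pou5f1, had 3795 in Dep 1 and 1725 to 2652 elsewhere, and the keratin gene Krt18 47707 against 13384 to 27125. Krt18, Krt8 (34040) and Id2 (35837) made up most of the sum in Dep 1. Tead4, Tfap2a, Krt7, Elf5 and Hand1 were not highest there, while the other markers of the list were. Krt7 had 1357 in Dep 1 and 1980 in Ctl 2, and Hand1 had 0 in Dep 1. The primitive endoderm regulators Sox17, Gata4 and Sox7 had 0 reads in Dep 1, and in Ctl 3 they were low too, at 0.883, 0 and 9.71 normalized counts. The 11 listed markers of that lineage summed to 26762 in Dep 1 and 21961 to 28058 in the other embryos, but Dab2 alone made up 22085 of the sum in Dep 1, its highest level. Without Dab2 the other 10 summed to 4677 in Dep 1, against 8799 to 14301 in the other embryos. Tdgf1, a Nodal coreceptor of the epiblast, had 17 normalized counts in Dep 1 and 881 to 2402 elsewhere. The summed oocyte markers were also lowest in Dep 1, at 10.9 against 166 to 545. The part that cell composition, or the 691 genes at 0 reads, has in the low values of Dep 1 was not tested.

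The balance of the core factors against lineage genes was measured within each embryo, where the size factor nearly cancels. The log2 ratio of Nanog to Gata6, the regulator that starts primitive endoderm, was -1.01, -0.70 and -1.20 across Ctl 1 to 3, against -0.32, 0.61 and -1.01 across Dep 1 to 3. Dep 1 and Dep 2 lay above the Ctl embryos and Dep 3 among them, and Dep was higher in 3 of 3 same-numbered pairs. The difference in mean was 0.73 (two-sided exact permutation test, p = 0.2, adjusted over the 2 ratios 0.4), and it was 0.31 without Dep 2. Exact sign flips within the same-numbered pairs gave p = 0.25, the smallest that 3 pairs allow. The difference in mean was 0.86 without Ctl 2, 0.77 without Dep 1 and 1.11 without Dep 3. The log2 ratio of Pou5f1 to Cdx2 was 0.49, 1.07 and 0.20 across the Ctl embryos, against -0.46, 1.15 and 0.06 across the Dep embryos. Dep held the lowest and the highest embryo. The difference was -0.34 (exact permutation test, p = 0.5, also after adjustment), and 0.018 without Dep 1. With 3 embryos against 3 the smallest two-sided p is 0.1, so neither ratio could have passed 0.05.

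Pairs of the 10 factors varied in the same and in opposite directions about equally often. Of the 45 pairs, 22 had a positive and 23 a negative Pearson r over the 6 embryos, with a median of 0.00. By exact permutation, 2 pairs had an unadjusted p under 0.05, and 0 passed after adjustment over the 45 pairs, the smallest adjusted p being 0.507. Over 6 embryos the smallest exact p is 0.00139, which is 0.0625 after adjustment for a single pair, so no pair could have passed alone. The 3 pairs among the core factors had r = 0.48 for Pou5f1 and Nanog, 0.20 for Sox2 and Nanog and -0.18 for Pou5f1 and Sox2. Their exact permutation p-values were 0.340, 0.608 and 0.756, and Spearman's rho was 0.49, 0.09 and -0.09. Without the 2 embryos farthest from the median of the first-named gene, r was 0.71, -0.20 and 0.65. The promoters of Nanog, Sox2 and Zfp42 each hold an octamer core, and Sox2 and Nanog are given above. Nanog and Zfp42 had r = -0.52 (rho = -0.54, exact permutation p = 0.274), and -0.45 without Dep 1 and Dep 2. Sox2 and Zfp42 had r = -0.51 (rho = -0.09, exact permutation p = 0.332). Without Ctl 3 and Dep 1 their r was -0.30, and without Dep 1 alone it was 0.84.

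The 3 highest values of r belonged to pairs of naive factors. Among the 3 lowest, Klf5 and Esrrb were also such a pair, as were Klf2 and the naive marker Zfp42. Klf2, Klf4, Klf5, Esrrb, Tfcp2l1 and Zfp42 are most of the 10 factors, so pairs among them are a large share of the 45 to begin with. None of the 6 pairs below passed after adjustment. Klf4 and Esrrb had r = 0.78 (rho = 0.60; exact permutation p = 0.0722, 0.507 after adjustment). Klf2 and Esrrb had 0.76 (rho = 0.26; p = 0.0889 by the same exact test) and Klf4 and Tfcp2l1 0.73 (rho = 0.77; exact p = 0.0944). Dep 1 was low for both genes of each pair. Without the 2 embryos farthest from the median of the first gene, Dep 1 among them each time, r was -0.13, -0.16 and 0.51, so that the first 2 relations rest on those embryos. The lowest r was -0.95, for Sox2 and Klf5 (rho = -0.77; exact permutation p = 0.0208, 0.507 after adjustment). It lay between -0.98 and -0.77 with any 1 embryo left out, and turned to 0.38 without both Ctl 3 and Dep 1, the embryos at the ends of the range of Sox2. Klf2 and Zfp42 had -0.92 (rho = -0.49; exact p = 0.0319) and kept -0.72 without Dep 1 and Dep 2. Klf5 and Esrrb had -0.81 (rho = -0.37; exact p = 0.0833), and -0.18 without Ctl 3 and Dep 1.

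The sign of many pairs turned when Dep 1 was left out. Without it, 26 of the 45 pairs had the same sign as with all 6 embryos, and 21 kept one sign whichever embryo was left out. Klf5 and Zfp42, the 2 factors highest in Dep 1, had r = 0.55 with it (rho = -0.14; exact permutation p = 0.272) and -0.97 without it. Pou5f1 and Klf2 had 0.57 (rho = 0.89; exact permutation p = 0.235) and 0.98. These 2 pairs were picked after their values were seen. Measured as deviations from the group means, r was 0.81 for Klf4 and Esrrb, -0.92 for Sox2 and Klf5 and -0.93 for Klf2 and Zfp42. Over the 45 pairs this changed r by a median of 0.030, and 1 pair changed sign. The change was larger for some pairs with Nanog: r went from 0.20 to 0.64 for Sox2 and Nanog, and from -0.25 to -0.70, the largest change, for Nanog and Klf5.

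**Figure D5:**
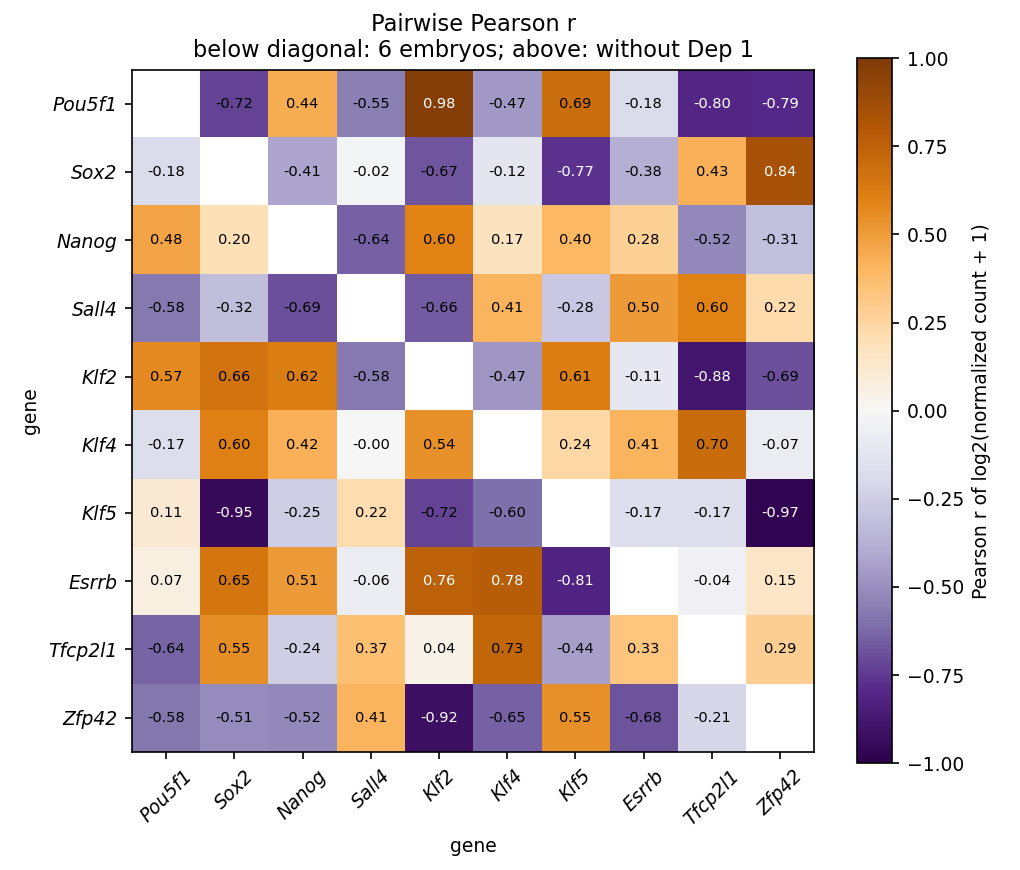
Pearson r of log2(normalized count + 1) for each pair of factors, over the 6 embryos below the diagonal and without Dep 1 above it. Orange marks positive and purple negative r, and r of Klf5 and Zfp42 goes from 0.55 below the diagonal to -0.97 above it.

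The genes most like Pou5f1, Nanog and Sox2 in their pattern over the embryos lay outside the set. With only 10 factors among the 9613 genes compared, that was likely from the start. Among the 9613 genes with a mean of 100 normalized counts or more, those with the highest r to Pou5f1 over the 6 embryos included Lats1 (0.99), a kinase of the Hippo pathway, and Trim38 (0.98). For Nanog they were Stip1 (0.99), a co-chaperone of HSP70 and HSP90, Bloc1s4 (0.99) and the splicing factor gene Slu7 (0.99). For Sox2 they were Mtbp (0.997), Kdm7a (0.99), a histone demethylase, and Polr3f (0.98), a subunit of RNA polymerase III. Stip1 had 6654, 8142 and 7665 normalized counts across the Ctl embryos, against 6692, 17943 and 8941 across the Dep embryos, with the same single high embryo, Dep 2, as Nanog. Mtbp had 295, 244 and 372 across the Ctl embryos, against 143, 273 and 256 across the Dep embryos, with Dep 1 lowest as for Sox2. These genes were picked as the highest of 9613 over only 6 embryos, and no test was made of them.

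The other regulators of core and naive pluripotency also gave 0 calls. Of 20 listed by name, 19 were measured, 8 with a higher and 11 with a lower mean log2 level in Dep, and their median log2 fold was -0.08. Ctnnb1, the beta-catenin gene whose product relieves repression of naive genes, was the only one of the 19 whose groups did not overlap, beside 6.90% of all genes. It had 7166, 5836 and 6342 normalized counts across the Ctl embryos, against 4535, 4946 and 4826 across the Dep embryos, a log2 fold of -0.43 ± 0.24 (limma, unadjusted p = 0.1002). Rif1, a telomere and replication factor abundant in embryonic stem cells, had 6422 ± 861 and 4811 ± 1143, and Gbx2, a homeobox gene induced by LIF, 26.7 ± 35.9 and 56.5 ± 28.4 (SD, n = 3 each).

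Targets of OCT4 and SOX2 were mixed. Of 8 named, 7 were measured, 2 with a higher and 5 with a lower mean log2 level in Dep (median log2 fold -0.24). Fgf4, the epiblast growth factor with a composite OCT4 and SOX2 enhancer, had 74.6, 445 and 173 normalized counts across the Ctl embryos, against 0, 65.5 and 100.3 across the Dep embryos, and the groups overlapped. Utf1, another gene with such an enhancer, had 472, 741 and 615 across the Ctl embryos, against 637, 1709 and 775 across the Dep embryos. Dep 2 was the highest embryo for Utf1, as it was for Nanog, and Dep 1 had no read of Fgf4. The log2 folds were -3.26 ± 1.57 for Fgf4, whose size depends on the pseudocount because of that 0, 0.66 ± 0.41 for Utf1 and -1.27 ± 1.45 for Tdgf1 (limma, unadjusted p = 0.0638, 0.137 and 0.401). The sign for Tdgf1 rests on Dep 1: Dep 2 and Dep 3, at 1855 and 2402, lay above all 3 Ctl embryos, and the log2 fold was 1.02 without Dep 1.

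Genes of later pluripotency were sparsely represented. Of 13 genes of the formative and primed states, 4 were listed, 3 with a higher mean log2 level in Dep. Otx2, which leads the exit to the formative state, had 0, 6.68 and 201 normalized counts across the Ctl embryos, against 115, 207 and 59.8 across the Dep embryos. The de novo methyltransferase gene Dnmt3b had 2605 ± 27.3 and 2855 ± 577, and the FGF target Etv5 274 ± 57.2 and 230.3 ± 127 (SD, n = 3 each). Of 10 genes that promote exit from the naive state all were listed, 3 higher and 7 lower in Dep, and their median log2 fold was -0.06. Tcf7l1, the repressor of naive genes that beta-catenin relieves, had 7.10, 244 and 162 across the Ctl embryos, against 161, 249 and 161 across the Dep embryos, where Ctl 1 alone was low. Fnip1 had 1088 ± 308 and 845 ± 58.5, and its partner Flcn 457 ± 311 and 551 ± 223.

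Relatives of the factors gave 0 calls as well. Of 32 named members of the same families, 23 were measured, 7 with a higher and 16 with a lower mean log2 level in Dep, and their median log2 fold was -0.26. The groups did not overlap for 2 of the 23, both Krüppel-like factors, where 6.90% of all genes had such groups. Klf9 had 1394, 1368 and 1639 normalized counts across the Ctl embryos, against 1241, 965 and 985 across the Dep embryos, and Klf10 757, 796 and 755 across the Ctl embryos, against 679.9, 536 and 469 across the Dep embryos. Neither passed the test (limma, unadjusted p = 0.113 and 0.158). Klf7 had 109.5 ± 44.1 and 45.1 ± 35.1 (SD, n = 3 each), and its groups overlapped. Among the lineage markers, Gata3 of the trophectoderm had 7676 ± 1076 and 7396 ± 3064, Gata6 5676 ± 643 and 4555 ± 1964, and Gata2, with the smallest unadjusted p of the trophectoderm list, 361 ± 145 and 808 ± 674. Dep 1 alone had 1567 normalized counts of Gata2, against 278 and 580 in Dep 2 and Dep 3 and 224 to 512 in Ctl. Lama1 had the smallest unadjusted p of the primitive endoderm list, with 392 ± 222 and 730.4 ± 389.9.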

How the data were processed

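RNA of 6 single blastocysts was reverse transcribed with the SMART-Seq v4 kit, per the labels' protocols. HISAT2, Cufflinks (2.2.1) and the build mm10 are named, without roles, in the submitters' processing notes. Per the file headers, the deposited table holds a signal value per gene and embryo (a normalized count), their mean, a log2 fold change with its SE, a test statistic (a score) and p-values before and after adjustment. Each column, divided by its smallest step, became whole reads (100% of values, to within 0.01). For Dep 2 the step, 0.993, is close to 1 and was taken as a size factor by analogy with the other columns. No gene has a mean under 14.2, so that rarer transcripts are not analysed here.

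Symbols, coordinates and exon lengths were read from GENCODE M21 (GRCm38, the assembly of mm10), with 11829 of 12149 identifiers matched, and promoters from RefSeq (GRCm38.p6). FPKM was computed from whole reads. limma 3.58.1 with a mean-variance trend was fitted across all genes on log2(normalized count + 1). On that scale the added 1 shrinks folds of low genes, but a single embryo near 0 can enlarge a fold or turn its sign. Tcl1, at 0 in Dep 1, had a log2 fold of -1.52 with a mean of 168 in Ctl and 217 in Dep. The fit was also run on simulated counts. Their changes were far larger than the folds of the factors, so that run does not measure the power to detect such folds. edgeR 4.0.16, DESeq2 1.42.0 (R 4.3.3), pseudocounts, normalizations, a minimum mean of 100, weights, a block and each embryo left out were alternatives. Deviations of same-numbered embryos from their group means correlated with r = 0.133, 0.151 and 0.129 across genes, each over 0.1. Differently numbered embryos gave r from -0.158 to 0.044. The main tests left the embryos unpaired. Same-numbered pairs were used only as an alternative, and the labels state no pairing. Reads differed between all libraries of a group beyond sampling noise (chi-square per degree of freedom at least 89.5).

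The composite motif, the sums without Dab2, the comparisons within embryos and pairs of embryos, and the Tdgf1 fold without single embryos were added after the data had been seen. The factors and lists were chosen with earlier results of these data known. Named are all 10 factors, the 3 genes of smallest p of the main lists, 4 lineage genes, the 3 highest and 3 lowest correlations and the 3 genes most like Pou5f1, Nanog and Sox2, of which 1 is not reported here. Krt18, Krt8, Id2, Tead4, Tfap2a, Krt7, Elf5, Hand1, Sox7, Gata4, Dab2 and pairs so marked were chosen after their values were seen. Reads carry no molecular identifiers and are not independent molecules.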

Additional observations from a re-analysis of the deposited data

How the results depend on the processing

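No factor passed an adjusted p of 0.05 under any of the 16 alternatives, the smallest adjusted p being 0.838 (limma, without Dep 3). DESeq2 on whole reads called 1 gene of the table where limma called 0. The number of genes at an unadjusted p under 0.05, 225 in limma, was 399 with library weights and 420 with the replicate block, and 122 to 576 with 1 embryo left out. The replicate block called 0 genes and changed no other call (smallest adjusted p of a factor 0.941), and the number of factors higher in Dep, 6, was 4 to 7 with 1 embryo left out. The signs of 8 of the 10 folds turned in at least 1 setting: Pou5f1 was -0.020 with quantile normalization and -0.036 with edgeR and with DESeq2, Esrrb 0.031 with edgeR, 0.027 with DESeq2 and 0.11 with library weights, and, with those weights, Sall4 was -0.12 and Zfp42 -0.042. With 1 embryo left out the folds ran from -0.30 to 0.25 for Pou5f1, -0.10 to 0.24 for Sall4, -0.53 to 0.074 for Klf2, -0.22 to 0.49 for Klf4, -0.0034 to 0.62 for Nanog, -1.03 to 0.63 for Esrrb, -0.33 to 0.043 for Tfcp2l1 and -0.11 to 0.20 for Zfp42. The log2 ratio of Pou5f1 to Cdx2 ran from -0.78 to 0.018, and r of Klf2 and Esrrb from -0.11 to 0.87. The fold of Tdgf1 ran from -2.51 to 1.02. Sign flips within pairs gave exact p = 0.25 and 0.5 for the 2 log2 ratios (replicate block), whose mean differences, 0.73 and -0.34, are the same by construction. The cause was not tested. With TPM the order of levels was that of FPKM. Both use the same reads and exon lengths, so within an embryo the order cannot differ, and the lengths were not checked. The 30 reads of Esrrb in Dep 1 limit its precision there.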
